A study of Mus musculus with 12 samples.

Results

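The 8 chemokine receptors Ccr1, Ccr2, Ccr7, Cxcr2, Cxcr3, Cxcr4, Cxcr6 and Cx3cr1 were followed across 12 RNA-seq libraries of murine alveolar type II (ATII) cells, the surfactant-making epithelial cells of the lung. The receptors were set as a list of gene names, with no threshold on a measured value, and earlier results of these data were known when the list was made. They were 8 of 23238 gene symbols in the count tables. All 8 were listed, and all 8 passed the filter on low counts. The study asked how the acetyltransferase p300, encoded by Ep300, acts in ATII cells during bleomycin-induced lung fibrosis. Each group held 3 libraries, made from cells sorted for CD74 and EpCAM at the surface. Con libraries came from PBS-treated Spc-p300 f/f mice, labelled as the negative control for the knockout, and BLM libraries from the same genotype given intratracheal bleomycin at 4 mg/kg. KO libraries came from PBS-treated Spc-p300 d/d mice and KOBLM libraries from bleomycin-treated Spc-p300 d/d mice. In these mice loxP sites flank exon 9 of p300, and a tamoxifen-inducible CreERT2 under the surfactant protein C promoter restricts recombination to cells that use that promoter. Mice were 8 weeks old when tamoxifen was given at 10 mg/kg, and whether the Con and BLM mice received tamoxifen or its vehicle was not given for each library. The supplementary methods name C57BL/6 mice beside the knockouts as the source of the sorted cells, so the Con and BLM genotype was stated in more than a single way.

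Chemokine receptors are heptahelical receptors at the cell surface that couple mainly to inhibitory G proteins and steer cells up a gradient of chemokine. They are known mostly from leukocytes: Ccr1, Ccr2 and Cx3cr1 from monocytes and macrophages, Cxcr2 from neutrophils, Ccr7 from dendritic cells and naive lymphocytes, Cxcr3 and Cxcr6 from T cells and NK cells, and Cxcr4 from most leukocytes. ATII cells are not usually described by them, so in a sorted epithelial sample their transcripts are read beside the markers of leukocytes.

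Library totals ranged from 7005005 to 11153154 counts, with a median of 9186234. Genes with at least 1 count numbered 6847 in BLM 3, 8790 in KO 3, 9018 in KOBLM 2 and 10246 in Con 3. The other libraries had 11139 to 13838 such genes. The part of this number in the 0 counts of single receptors was not tested. Levels are given as CPM, counts scaled to a library total of 1000000, and a library with 3 or fewer counts of a gene is read as not detected, which corresponds to 0.269 to 0.428 CPM. Intervals and floors cover counting error only. Transcripts of leukocytes were present in every library: the summed level of 8 pan-leukocyte markers ranged from 4509.8 to 9090.7 CPM in 11 libraries and was 656.6 CPM in BLM 3. In BLM 3 the macrophage marker Csf1r and the monocyte marker Ly6c2 were at 0 counts, and Ptprc, encoding CD45, was at 35.1 CPM against 204 CPM or more elsewhere. Other macrophage markers were present in BLM 3, where 11 of 17 were above the floor. The 17 summed to 1237.1 CPM there, against 8601.7 to 40658.5 CPM in the other libraries. ATII markers summed to 182.7 to 2070.6 CPM over 12 genes, lowest in KO 2, so the sorted material held more pan-leukocyte than ATII marker counts in 11 of 12 libraries. The macrophage markers, a longer list, summed to more than the ATII markers in every library, in BLM 3 to 1237.1 against 888.8 CPM. Ep300 had 112 ± 52.7 CPM (SD, n = 3) in Con and 134 ± 27.1 CPM in the libraries labelled KO, and 84.0 ± 38.5 CPM in BLM and 107 ± 58.3 CPM in those labelled KOBLM. Tags at the 3′ end lie outside exon 9, so this level does not check the deletion, and the genotype is taken from the labels throughout. Because the samples were bulk RNA, fewer cells of a type and less RNA per cell cannot be told apart in any value that follows.

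The 8 receptors together took 54.8 CPM in BLM 3 and 149 to 920 CPM in the other 11 libraries. BLM 1 and BLM 2 had the highest sums, 920 and 815 CPM, and BLM 3 the lowest. Con libraries had sums of 149, 257 and 323 CPM, KO libraries 155, 314 and 277 CPM, and KOBLM libraries 472, 284 and 427 CPM. The 3 BLM libraries therefore bracketed all others, and receptor fold changes of BLM are given with and without BLM 3. Ccr1, Ccr7, Cxcr2 and Cxcr4 were above the detection floor in 12 of 12 libraries, Ccr2 and Cx3cr1 in 10, Cxcr6 in 7 and Cxcr3 in 5.

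**Figure D1:**
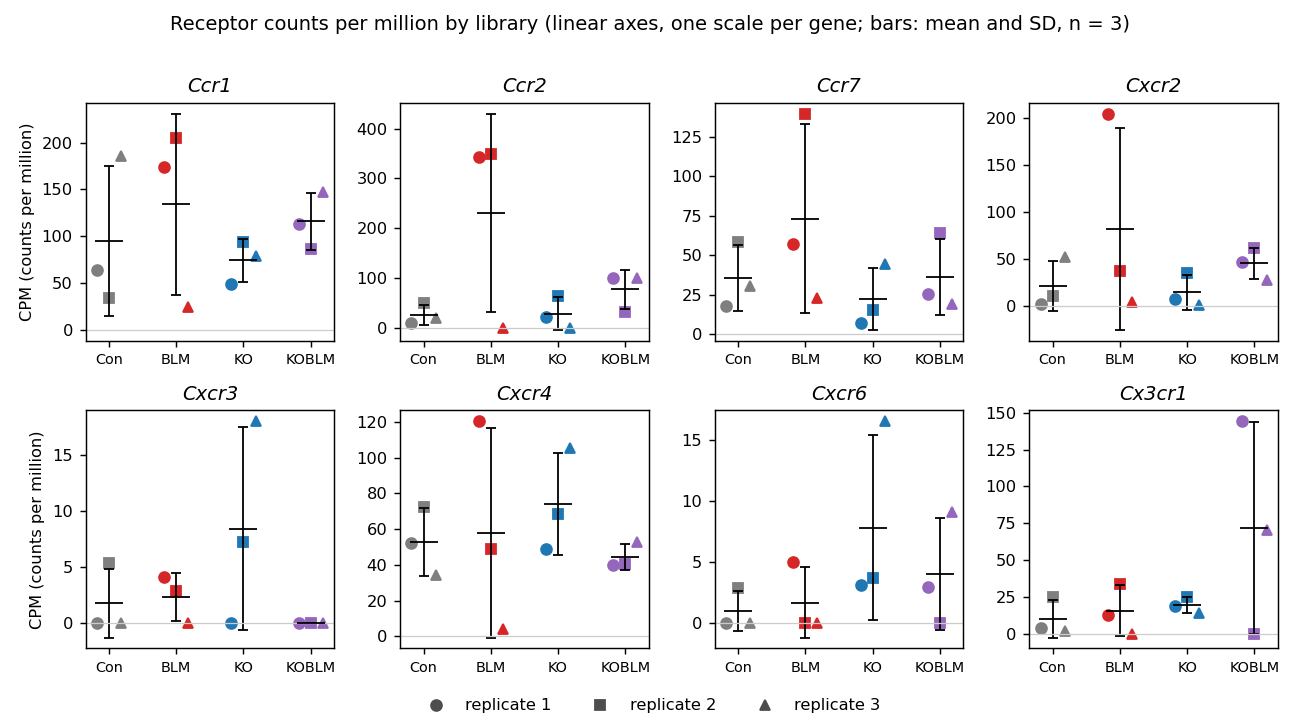
CPM of each receptor in each library on linear axes with a scale of its own per gene, by group on the horizontal axis; symbols mark the replicate number, horizontal bars the mean and vertical bars the SD (n = 3). Ccr2 reached 343 and 348 CPM in BLM 1 and BLM 2 but 0.09 CPM in BLM 3, and Cxcr3 was at 0 in all 3 KOBLM libraries.

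Ccr2, the receptor for Ccl2, Ccl7 and Ccl12 that brings inflammatory monocytes out of bone marrow into tissue, lies on chromosome 9, from 124101950 to 124113557 on the plus strand of GRCm38. Its promoter is shown beside that of Cxcr4 because these receptors had the largest and the smallest log2 fold change between BLM and Con among the 8. Both are RefSeq windows of build GRCm38.p6, from 250 bases before to 50 bases after the annotated start, on the strand of the gene, with CpG dinucleotides in capitals. The annotated start is that of RefSeq: for Ccr2 it was 233 bases inside the GENCODE gene whose limits are given above, and for Cxcr4 it was 6 bases before the GENCODE start.
Ccr2, chr9:124101933-124102232, plus strand: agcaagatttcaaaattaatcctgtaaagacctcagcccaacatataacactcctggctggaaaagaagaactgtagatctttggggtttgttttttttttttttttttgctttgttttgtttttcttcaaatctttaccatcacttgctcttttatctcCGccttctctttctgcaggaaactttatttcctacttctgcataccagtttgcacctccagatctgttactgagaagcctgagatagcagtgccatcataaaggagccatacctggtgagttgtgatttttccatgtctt
Cxcr4, chr1:128592250-128592549, minus strand: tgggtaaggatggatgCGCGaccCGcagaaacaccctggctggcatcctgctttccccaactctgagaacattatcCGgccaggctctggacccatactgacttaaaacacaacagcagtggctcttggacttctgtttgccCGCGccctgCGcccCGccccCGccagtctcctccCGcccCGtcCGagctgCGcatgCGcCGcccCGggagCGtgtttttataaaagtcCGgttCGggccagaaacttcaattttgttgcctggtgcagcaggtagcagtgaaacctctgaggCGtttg
The Ccr2 window held 1 CpG and 38.0% G and C, and the Cxcr4 window held 20 CpG and 59.3% G and C. Over 32851 promoter windows of this length the median was 7 CpG, 14.12% of windows had at most 1 and 26.49% had at least 20. A search of both strands for GGGCGG, the GC box, found 3 matches in the Cxcr4 window, with first bases at -95, -75 and -50 from the start, and none in the Ccr2 window; 35.66% of all windows had at least 1. TATAAA matched the Cxcr4 window at -30, where the same letters read on the other strand gave an overlapping match at -32, and 13.62% of all windows had a match. The C/EBP-type motif TTGCNNAA was found in 0 of the 7 receptor windows in the table and in 10.8% of all windows. The other windows held 1 CpG (Ccr1), 2 (Cxcr2), 3 (Cxcr6), 4 (Cxcr3) and 5 (Cx3cr1, whose RefSeq start was 1583 bases inside the GENCODE gene), so Cxcr4 was the receptor with a CpG number above the median of all promoters.

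Ccr2 was at 9.50, 48.9 and 19.4 CPM in Con 1 to 3 and at 343, 348 and 0.09 CPM in BLM 1 to 3. The first 2 BLM libraries were far above all Con libraries, and BLM 3, with a single Ccr2 count, was below them, so the groups overlapped. Ccr2 was at 20.7, 64.4 and 0 CPM in KO 1 to 3 and at 99.4, 32.1 and 100.1 CPM in KOBLM 1 to 3. KOBLM 1 and KOBLM 3 thus lay between the Con libraries and BLM 1 and BLM 2, and KOBLM 2 lay within the Con range. Mean levels were 25.9 ± 20.5 CPM in Con, 230 ± 199 in BLM, 28.4 ± 32.9 in KO and 77.2 ± 39.1 in KOBLM (SD, n = 3). The BLM mean was 8.89-fold that of Con, with a log2 fold change of 3.27 ± 1.90 (SE; edgeR quasi-likelihood p = 0.107, adjusted p = 1, two-sided exact permutation test of CPM p = 0.4). Without BLM 3 the log2 fold change was 3.85 ± 1.38, and Ccr2 then passed the threshold of the study, a change over 1.5-fold with an unadjusted p under 0.05 (edgeR adjusted p = 0.664). DESeq2 on all 12 libraries gave 3.24, which also passed. The summed level of 8 monocyte markers was, like Ccr2, high in BLM 1 and BLM 2 and lowest in BLM 3 within Con and BLM. It was 209, 336 and 236 CPM in Con and 1890, 818 and 154 CPM in BLM. In KO it was 229, 656 and 185 CPM, and in KOBLM 1221, 219 and 920 CPM. KOBLM 1 and KOBLM 3 were thus above BLM 2 in monocyte markers but below it in Ccr2. Ly6c2, which marks inflammatory monocytes, was at 75.9 and 65.0 CPM in BLM 1 and BLM 2, at 6.29 to 31.0 CPM in Con and at 0 in BLM 3. The part of monocytes in the Ccr2 level was not tested.

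Ccr1, a receptor for Ccl3, Ccl5, Ccl6 and Ccl9 on monocytes, macrophages and neutrophils, lies on chromosome 9 from 123962124 to 123968692, minus strand. Its level was 64.5, 34.6 and 185 CPM in Con, 174, 204 and 24.0 CPM in BLM, 49.5, 94.4 and 78.6 CPM in KO and 113, 86.3 and 148 CPM in KOBLM. Con 3 was as high as BLM 1 and BLM 2, and BLM 3 was the lowest of the 12. The log2 fold change between BLM and Con was 0.66 ± 0.83 (edgeR p = 0.44, exact permutation p = 0.8), and 1.17 ± 0.60 without BLM 3 (adjusted p = 0.89). Con 3 was also the Con library with the highest sum of 9 neutrophil markers, 3847 CPM against 160 and 309 CPM in Con 1 and Con 2. It was highest of the Con libraries in 17 macrophage markers as well, at 24211 CPM against 13410 and 11583 CPM. The same held for the pan-leukocyte markers, at 8169 CPM against 5870 and 5103 CPM. Among 13053 other genes, the 3 with the pattern most like that of Ccr1 over the 12 libraries were Wfdc17 (Pearson r = 0.937 of log2 CPM), the neutrophil and monocyte calcium-binding protein gene S100a9 (r = 0.900) and Ms4a6b (r = 0.898). The libraries also differed in depth and in leukocyte marker level, and the part of these in the coefficients was not tested.

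Cx3cr1, the receptor for membrane-bound Cx3cl1 on patrolling monocytes, tissue macrophages and NK cells, lies on chromosome 9 from 119901616 to 120069879, minus strand. Its level was 3.61, 24.8 and 1.89 CPM in Con, 12.6, 34.0 and 0 CPM in BLM, 18.7, 25.1 and 14.1 CPM in KO and 144, 0 and 70.5 CPM in KOBLM. KOBLM 1 and KOBLM 3 stood above all other libraries, whereas KOBLM 2 had 0 counts, which by counting error alone allows up to 0.289 CPM. KOBLM 2 was also a library in which few genes had a count, 9018. The mean was 71.6 ± 72.1 CPM in KOBLM and 15.5 ± 17.2 CPM in BLM (n = 3), a log2 fold change of 2.17 ± 2.04 (edgeR p = 0.305, exact permutation p = 0.4), and 1.58 ± 1.76 without BLM 3 (adjusted p = 1). Against KO the KOBLM log2 fold change was 1.87 ± 2.02 (edgeR p = 0.37, exact permutation p = 0.4). The same KOBLM libraries were higher than KOBLM 2 in monocyte markers, whose sum was 1221, 219 and 920 CPM in KOBLM 1 to 3. Plac8, 1 of these markers, was at 181, 0.482 and 102.4 CPM there. BLM 1 had the highest monocyte marker sum, 1890 CPM, with 12.6 CPM of Cx3cr1, so Cx3cr1 did not follow these markers over all libraries. The genes with the pattern most like Cx3cr1 were Sp140 (r = 0.932), Nr4a1 (r = 0.925), a nuclear receptor gene needed by patrolling monocytes, and Med16 (r = 0.923); Nr4a1 is also in the list of monocyte markers.

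Cxcr2, the receptor for Cxcl1, Cxcl2, Cxcl3 and Cxcl5 that guides neutrophils, lies on chromosome 1 from 74153989 to 74161246, plus strand. Its level was 1.34, 9.95 and 51.4 CPM in Con, 204, 37.2 and 3.50 CPM in BLM, 7.10, 35.3 and 0.555 CPM in KO and 46.7, 61.0 and 27.7 CPM in KOBLM. BLM 1 stood alone at the top, and KOBLM was the group whose libraries lay closest together. The log2 fold change between BLM and Con was 2.09 ± 1.59 (edgeR p = 0.209, exact permutation p = 0.6), and without BLM 3 it was 2.66 ± 1.40 (adjusted p = 0.89). The neutrophil marker sum was highest in the same library, 5809 CPM in BLM 1, and was 137 CPM in BLM 3. S100a8, a major cytosolic protein of neutrophils, was the gene most like Cxcr2 over the 12 libraries (r = 0.969), followed by Pglyrp1 (r = 0.95), the gene of a neutrophil granule protein, and Cby1 (r = 0.937). The part of neutrophils in the Cxcr2 level was not tested.

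Ccr7, the receptor for Ccl19 and Ccl21 that leads dendritic cells and naive T cells to lymph nodes, lies on chromosome 11 from 99144196 to 99155077, minus strand. Its level was 17.9, 58.3 and 30.5 CPM in Con, 56.8, 139 and 23.0 CPM in BLM, 7.0, 15.4 and 44.3 CPM in KO and 25.3, 64.1 and 19.2 CPM in KOBLM. BLM 2 was the highest library, and the groups overlapped in all comparisons. BLM was above Con by a log2 fold change of 1.15 ± 1.02 (edgeR p = 0.28, exact permutation p = 0.5) and KOBLM was at -1.07 ± 1.02 against BLM (edgeR p = 0.312, exact permutation p = 0.6). Without BLM 3 the values were 1.61 ± 0.87 (adjusted p = 0.89) and -1.54 ± 0.87 (adjusted p = 1). Smoc2 (r = 0.831), the B cell and plasmacytoid dendritic cell transcription factor gene Spib (r = 0.821) and Exosc8 (r = 0.796) had the patterns most like it.

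Cxcr4, the receptor for Cxcl12 that holds leukocytes and progenitors in bone marrow, lies on chromosome 1 from 128588199 to 128592293, minus strand. It was at 52.0, 72.4 and 34.2 CPM in Con, 120, 49.1 and 4.21 CPM in BLM, 49.0, 68.4 and 105 CPM in KO and 39.7, 40.4 and 52.9 CPM in KOBLM. BLM libraries spanned the highest and the lowest values, and the KOBLM libraries lay close together. The mean was 57.9 ± 58.6 CPM in BLM and 52.9 ± 19.1 CPM in Con, with a log2 fold change of 0.22 ± 0.95 (edgeR p = 0.816, exact permutation p = 0.9), and 0.78 ± 0.60 without BLM 3 (adjusted p = 0.984). Ctbp1 (r = 0.973), Klhl6 (r = 0.97) and Trnau1ap (r = 0.967) were most like Cxcr4; all 3 coefficients include BLM 3, where Cxcr4 was lowest.

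Cxcr3, the receptor of activated T cells and NK cells for Cxcl9, Cxcl10 and Cxcl11, lies on the X chromosome from 101731535 to 101734269, minus strand. Its counts were 0, 50 and 0 in Con, 29, 22 and 0 in BLM, 0, 53 and 195 in KO and 0, 0 and 0 in KOBLM. Detection was thus by library rather than by group, other than in KOBLM, where no library had a count. The KOBLM libraries allow levels of up to 0.289 to 0.401 CPM each, whereas the mean was 8.44 ± 9.08 CPM in KO, at least 24.8-fold higher than the mean KOBLM floor. Cd2 made up most of the summed level of 12 T cell markers outside BLM and was lower in all BLM than in all Con libraries, as 11.8% of all genes were: it was at 1116, 949 and 794 CPM in Con, at 21.1, 45.0 and 0 CPM in BLM, at 592, 211 and 459 CPM in KO and at 309, 869 and 196 CPM in KOBLM. Il7r, also in the list, was at 7.89, 7.59 and 0.66 CPM in Con and at 37.8, 76.4 and 0 CPM in BLM. Of 11 T cell markers tested, 3 had a log2 fold change above 0 in BLM versus Con. Cd3e, which encodes a chain of the T cell receptor complex, was at 23.2, 0 and 2.44 CPM in KOBLM. In KO it was at 0, 10.7 and 0 CPM, so libraries without a Cxcr3 count could hold Cd3e.

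Cxcr6, the receptor for Cxcl16 on resident T cells and NKT cells, lies on chromosome 9 from 123806475 to 123811760, plus strand, inside Fyco1, which is transcribed from the opposite strand and overlaps the last exon of Cxcr6. Whether the counting used strand was not given in the sources used here, so the Cxcr6 counts are uncertain. They were 0, 27 and 0 in Con, 35, 0 and 0 in BLM, 31, 27 and 179 in KO and 22, 0 and 82 in KOBLM. KO was the group in which every library had Cxcr6, at 3.14, 3.71 and 16.6 CPM, against 0 to 2.89 CPM in Con. The log2 fold change between KO and Con was 2.94 ± 3.23 (edgeR p = 0.379, exact permutation p = 0.1).

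**Figure D2:**
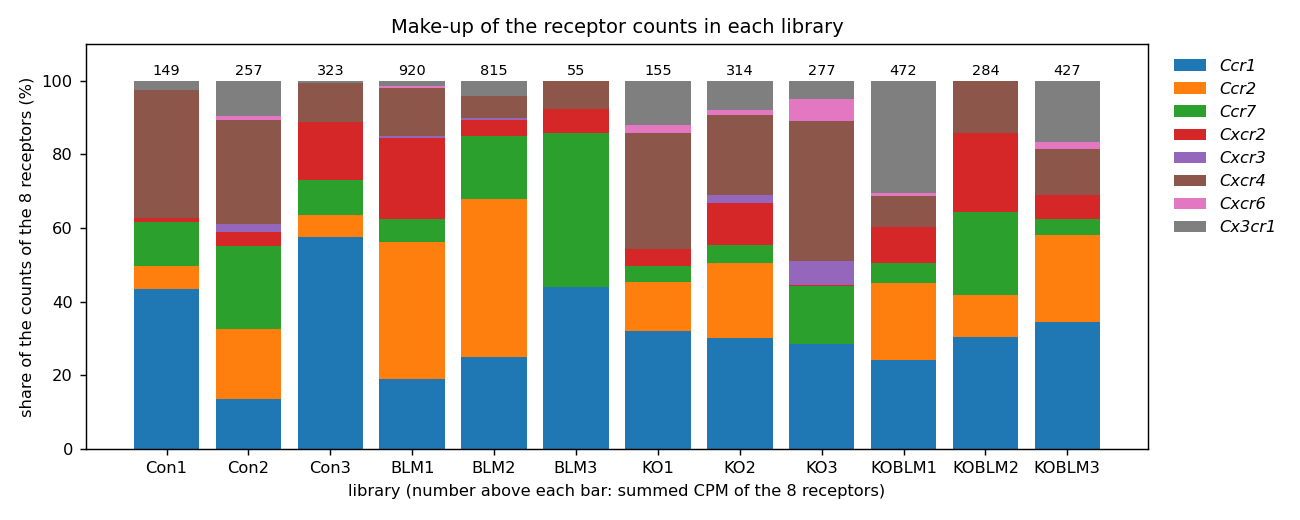
Share in percent of the summed counts of the 8 receptors that each receptor took, 1 bar per library, with the summed CPM above each bar. Ccr2 took 37.3% and 42.7% of the receptor counts in BLM 1 and BLM 2 and 0.164% in BLM 3, and Cx3cr1 took 30.6% and 16.5% in KOBLM 1 and KOBLM 3.

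The make-up of the receptor counts is a description, since the number of tags per transcript can differ between genes. Ccr2 took 6.38%, 19.0% and 6.02% of the receptor counts in Con, 37.3%, 42.7% and 0.164% in BLM, 13.3%, 20.5% and 0% in KO and 21.1%, 11.3% and 23.4% in KOBLM. Its share in BLM 1 and BLM 2 was above that of all other libraries. Cxcr4 took 35.0%, 28.2% and 10.6% in Con and 13.1%, 6.02% and 7.69% in BLM. Cx3cr1 took 2.43%, 9.65% and 0.584% in Con, 12.0%, 8.01% and 5.07% in KO and 30.6%, 0% and 16.5% in KOBLM. Ordered by mean level, BLM was highest for Ccr1, Ccr2, Ccr7 and Cxcr2, KO for Cxcr3, Cxcr4 and Cxcr6, and KOBLM for Cx3cr1. Neighbouring groups in each of these orders had overlapping ranges, for all 8 receptors.

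In BLM versus Con, which asks what bleomycin did in the p300 f/f genotype, all 8 log2 fold changes were above 0, from 0.22 for Cxcr4 to 3.27 for Ccr2. Their median was 0.77, against -0.08 over all 13054 genes tested. By the threshold of the study 0 of 8 receptors were called, where 4.27% of all genes were called in either direction. The paper reports many more changed genes at these cut-offs in this comparison. Only the cut-offs are therefore shared, and the calling of the study was not reproduced. In the fit to all 12 libraries edgeR gave no gene an adjusted p under 0.05 in any comparison, the smallest being 0.9. DESeq2 called 1 of 8 receptors, Ccr2, beside 7.54% of all genes. The 2 receptors of T cells and NK cells were at 0.46 ± 3.15 (Cxcr3) and 0.79 ± 3.02 (Cxcr6), and at 1.04 ± 3.24 and 1.37 ± 3.11 without BLM 3. Without BLM 3, edgeR called Ccr2 as well, with 5.45% of all genes called. No receptor had CPM ranges that did not overlap, and 5.32% of all genes did so upwards; the smallest p of the exact permutation test (two-sided) was 0.4, where 3 against 3 libraries cannot go below 0.1.

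**Figure D3:**
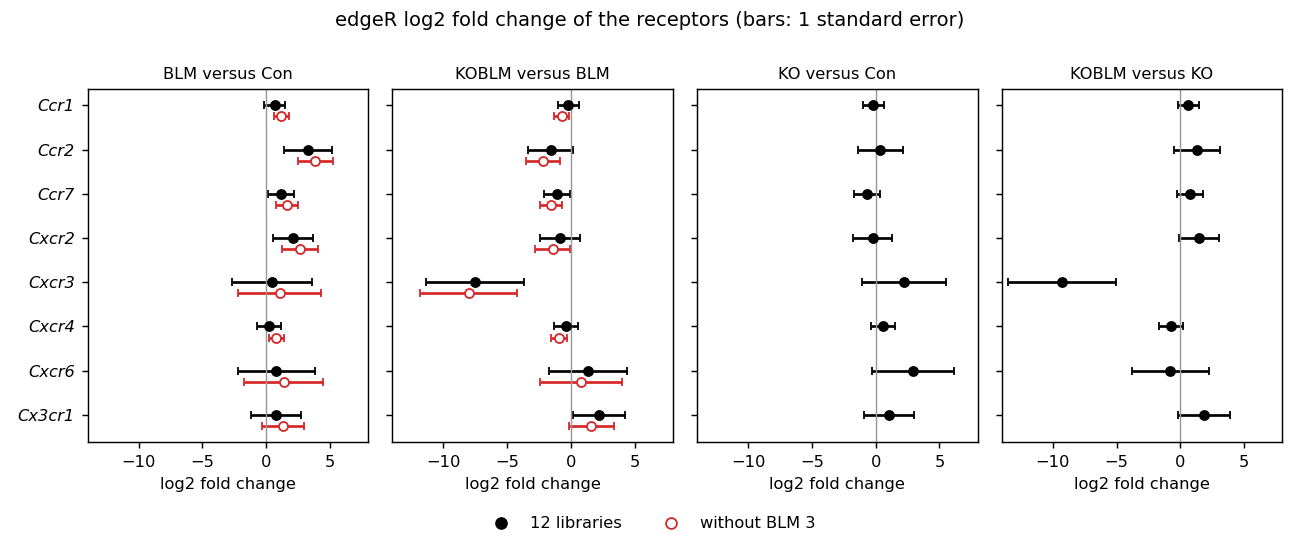
edgeR log2 fold change of each receptor in the 4 pairwise comparisons, with 1 standard error on each side; filled points used 12 libraries and open points left out BLM 3. In BLM versus Con all filled points were above 0, from 0.22 to 3.27, and the error bars were widest for Cxcr3 and Cxcr6.

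KOBLM versus BLM asks what the loss of p300 did under bleomycin. Here 6 of 8 receptors were at a negative log2 fold change, with a median of -0.62 against 0.10 over all genes, and 0 of 8 were called by edgeR or DESeq2, with 3.16% of all genes called by edgeR. Ccr2 was at -1.59 ± 1.78 (edgeR p = 0.386, exact permutation p = 0.4), or 2.98-fold lower in mean CPM. Without BLM 3 it was at -2.17 ± 1.31 (adjusted p = 1), with 3.34% of all genes called. Cxcr3 was at -7.51 ± 3.87 (edgeR p = 0.0755, exact permutation p = 0.4), a value set by the prior count because KOBLM had none, and the BLM mean was at least 6.88-fold above the KOBLM floor. Cx3cr1 and Cxcr6 were at positive values, 2.17 and 1.35. BLM libraries are shared by this comparison and that of BLM with Con, so opposite signs in the pair are not independent of each other.

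In KO versus Con, without bleomycin, 0 of 8 receptors were called by edgeR or DESeq2, with 1.44% of all genes called by edgeR, and log2 fold changes ran from -0.67 for Ccr7 to 2.94 for Cxcr6. Cxcr6 was the 1 receptor whose groups did not overlap, higher in 3 of 3 KO libraries than in all Con libraries, with 2.18% of all genes not overlapping upwards. The exact permutation test gave p = 0.1, the smallest it can give.

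KOBLM versus KO asks what bleomycin did in the libraries labelled with the deletion. edgeR called 1 of 8 receptors, Cxcr3, at -9.25 ± 4.23 (p = 0.0488, adjusted p = 1, exact permutation p = 0.4), where 1.69% of all genes were called and 0.529% were called lower. The Cxcr3 call rested on KO 2 and KO 3, since KO 1 had no count, and the groups overlapped at 0. The call was lost when KO 2 or KO 3 was left out, and also when any KOBLM library was left out; the log2 fold change then lay between -9.31 and -8.28. Ccr1, Ccr2, Ccr7, Cxcr2 and Cx3cr1 were at positive log2 fold changes of 0.63, 1.31, 0.75, 1.47 and 1.87, none past the threshold.

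The interaction asks whether the bleomycin effect differed between the genotypes. edgeR and DESeq2 called 0 of 8 receptors, with 2.82% of all genes called by edgeR. The difference of the 2 bleomycin effects was -1.96 ± 2.48 for Ccr2 and -9.71 ± 4.85 for Cxcr3 (adjusted p = 1 in both). For Ccr1 it was -0.03 ± 1.16 (adjusted p = 1). No difference between the genotypes in the response of a receptor was therefore shown, at standard errors of 1.16 to 4.85 on the log2 scale.

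**Figure D4:**
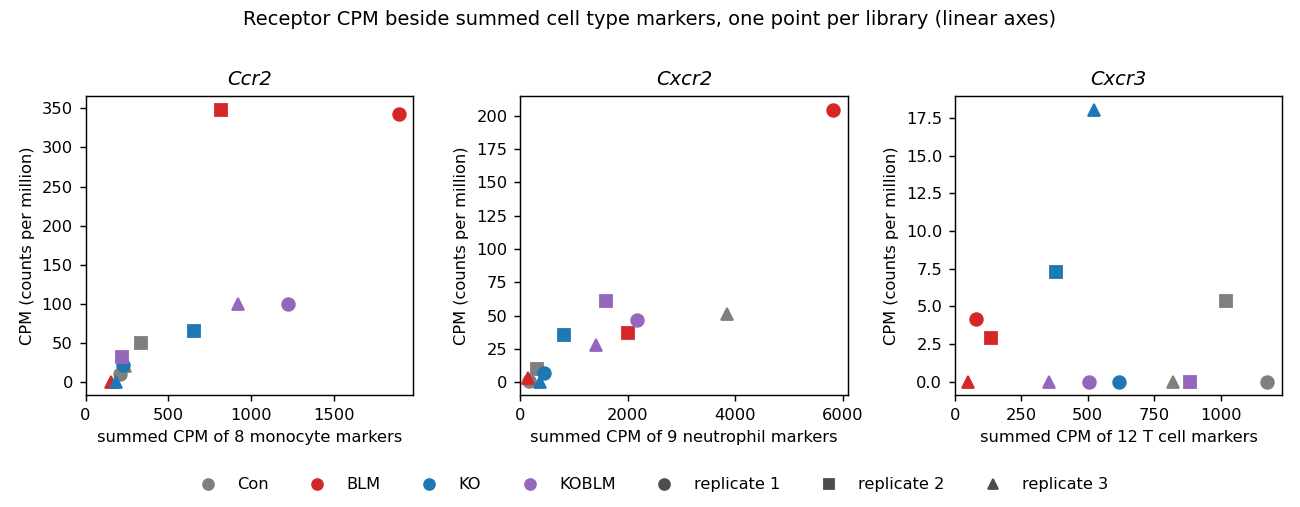
CPM of Ccr2, Cxcr2 and Cxcr3 on the vertical axes against the summed CPM of 8 monocyte, 9 neutrophil and 12 T cell markers on the horizontal axes, 1 point per library on linear axes; colours mark groups and symbols replicates. BLM 1 was highest in monocyte and neutrophil markers (1890 and 5809 CPM) and had 343 CPM of Ccr2 and 204 CPM of Cxcr2. The T cell panel shows Cxcr3 at 0 in Con 1, where the T cell marker sum was 1176 CPM. Cd2 made up 1116 CPM of that sum, and Cd3e was at 1.07 CPM.

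Among 22 ligands of the receptors, 19 were tested, and 5 rose in BLM against Con by the same threshold whereas 0 fell, beside 2.19% of all genes called higher. These were the Ccr2 ligands Ccl2, Ccl7 and Ccl12, the Cxcr2 ligand Cxcl2, and Ccl8. Ccl8 was kept in the ligand list as set, and which receptor it binds in mouse was not examined. The study had singled out Ccl2, Ccl7 and Ccl12 from the same RNA-seq data beside ChIP-seq data. Their calls here, and the count of 5, are therefore not independent of that choice. The paper also measured these chemokines by qRT-PCR in isolated ATII cells and in lungs, and by ELISA in serum and lavage fluid. It further used ChIP and reporter assays. Ccl2 had 205, 271 and 62 counts in Con against 5624, 4228 and 7 in BLM, a log2 fold change of 4.56 ± 2.11 (edgeR p = 0.0481, exact permutation p = 0.4). Ccl7 had 0 counts in the 3 Con libraries and 1016, 1101 and 0 in BLM, at least 289-fold higher in the BLM mean than the mean floor of Con (edgeR p = 0.00707, exact permutation p = 0.4). Ccl8 had 0 counts in Con and 110, 147 and 0 in BLM, at least 34.9-fold higher (edgeR p = 0.0254, exact permutation p = 0.4). Like Ccr2, these ligands were low or absent in BLM 3. Ccl12 had 4, 0 and 0 counts in Con against 464, 664 and 0 in BLM (edgeR p = 0.0358, exact permutation p = 0.4). For Cxcl2 the Con libraries held 6902, 5137 and 7152 counts and the BLM libraries 81926, 41065 and 514, a log2 fold change of 3.12 ± 1.28 (edgeR p = 0.0283, exact permutation p = 0.4). After adjustment over all genes, the 5 ligands had a p of 0.995 each. The median log2 fold change over the 19 tested ligands was 1.89. When each library was left out in turn, the number of ligands called ran from 1 without Con 2 (2.73% of all genes called) to 8, all higher, without BLM 3 (5.45%). It was 1 when the fit held the Con and BLM libraries alone, a setting whose share of all genes is not given here. DESeq2 on 12 libraries called 7 higher and 1 lower, beside its 7.54% of all genes.

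In KOBLM versus BLM 0 of 19 ligands passed the threshold by edgeR and 2, both higher, by DESeq2, which called 6.01% of all genes. Log2 fold changes were positive for 11 of the 19, with a median of 0.50. Of the 5 ligands called in BLM versus Con, Ccl2, Ccl7, Ccl12 and Cxcl2 had KOBLM means 4.63-fold, 4.74-fold, 19.0-fold and 2.18-fold below those of BLM, and the Ccl8 mean was 12.4 CPM in KOBLM and 11.7 CPM in BLM. The ranges overlapped for all 5. Ccl4 and the Ccr7 ligand Ccl21a, named after their values were seen, had KOBLM means 9.22-fold and 20.9-fold above those of BLM. Ccl21a did so without overlap (exact permutation p = 0.1), as 6.04% of all genes did upwards. KOBLM 1 to 3 held 829, 233 and 1447 Ccl2 counts, with 47, 422 and 129 of Ccl7. Cxcl2 took 27309, 5269 and 33516 counts there. In KO versus Con 2 ligands rose, where 0.536% of all genes were called higher: Ccl7 (0, 345 and 0 counts in KO, edgeR p = 0.016) and Ccl8 (0, 0 and 152 counts in KO, edgeR p = 0.0402), each from a single KO library and each with an exact permutation p = 1.0. Ccl7 was at least 47.2-fold and Ccl8 at least 14.0-fold higher in the KO mean than the Con floor. In KOBLM versus KO 0 ligands passed by edgeR or DESeq2, beside 1.69% of all genes called by edgeR. The Cx3cr1 ligand Cx3cl1 had 286, 758 and 1135 counts in Con against 66, 77 and 0 in BLM, without overlap in CPM, as for 11.8% of all genes downwards, and its log2 fold change of -3.39 ± 1.88 did not pass (edgeR p = 0.093, exact permutation p = 0.1).

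Of 16 other chemokine and atypical receptors, 11 were tested. In BLM versus Con edgeR called 0 and DESeq2 called 1 of the 10 it gave a p. This is near the 7.54% of all genes that DESeq2 called and is no result about the list. Ccr3, which lies between Ccr1 and Ccr2, was above the floor in a single library, KO 2, with 91 counts. Ackr3, the second receptor for Cxcl12, which removes it rather than signalling through G proteins, had 1, 146 and 205 counts in Con, 255, 71 and 0 in BLM, 1, 0 and 0 in KO and 365, 0 and 145 in KOBLM. It fell in KO against Con (edgeR p = 0.0309, exact permutation p = 0.1), with summed counts 359-fold lower per library total (95% exact counting interval 63.9 to 14203.8), and rose in KOBLM against KO (edgeR p = 0.0208, exact permutation p = 0.4), 530.5-fold by the same measure (94.8 to 20992.5). The KO group rests on 1 count, and Con 1 and KOBLM 2 were as low as KO. The adjusted p was 1 in both, and Cxcr4, the signalling receptor for the same ligand, did not pass in either comparison.

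Of 19 genes that carry the receptor signal inside the cell, 18 were tested. In BLM versus Con 1 fell and 0 rose: Plcb2, the phospholipase C of haematopoietic cells, with 1166, 1236 and 2099 counts in Con against 185, 277 and 0 in BLM (log2 fold change -2.79 ± 1.29, edgeR p = 0.0485, exact permutation p = 0.1). Since 2.08% of all genes were called lower and 4.27% in either direction, 1 of 18 is near the background and is no result about the list. By edgeR, 0 of the 18 passed in KOBLM versus BLM, in KO versus Con, in KOBLM versus KO and in the interaction. The shares of all genes called there were 3.16%, 1.44%, 1.69% and 2.82%. Gnai2, the main inhibitory G protein subunit of leukocytes, was at 2461 ± 187 CPM in Con and 1500.2 ± 1273 CPM in BLM, with 37.8 CPM in BLM 3.

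Receptor counts were also set against the counts of the 8 pan-leukocyte markers of the same library, a scale chosen after the values of BLM 3 were seen. Per 1000 pan-leukocyte counts, Ccr1 was at 11.0, 6.79 and 22.7 in Con, at 34.8, 33.9 and 36.6 in BLM, at 7.52, 20.9 and 10.0 in KO and at 24.2, 9.49 and 21.4 in KOBLM. For Ccr1 BLM 3 was no longer apart on this scale, and all BLM libraries were above all others. The scale itself differed between groups: 1 of its 8 markers had a log2 fold change above 0 in BLM versus Con (median -0.64). In KOBLM versus BLM 7 of 8 did (median 0.86), and BLM 3 held 7323 marker counts. In CPM, 0 receptors were without overlap in either comparison. The part of the marker counts in the values per 1000 was not tested. Groups did not overlap for 1 of 8 receptors in BLM versus Con, Ccr1, and for 2 of 8 in KOBLM versus BLM, Ccr1 and Ccr7. For Ccr1, BLM and Con did not overlap (exact permutation p = 0.1, the smallest possible), as for 8.73% of all genes upwards, and KOBLM and BLM did not overlap (exact permutation p = 0.1), as for 8.67% of all genes downwards. edgeR with this scale in place of library size gave Ccr1 a log2 fold change of 1.38 in BLM versus Con and -0.94 in KOBLM versus BLM, neither past the threshold. Ccr7 was at 11.4, 23.1 and 35.0 in BLM and at 5.38, 7.05 and 2.78 in KOBLM, without overlap (exact permutation p = 0.1), whereas its BLM and Con groups overlapped (exact permutation p = 0.2). Ccr2 remained split, with 68.5 per 1000 in BLM 1 and 0.137 in BLM 3.

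**Figure D5:**
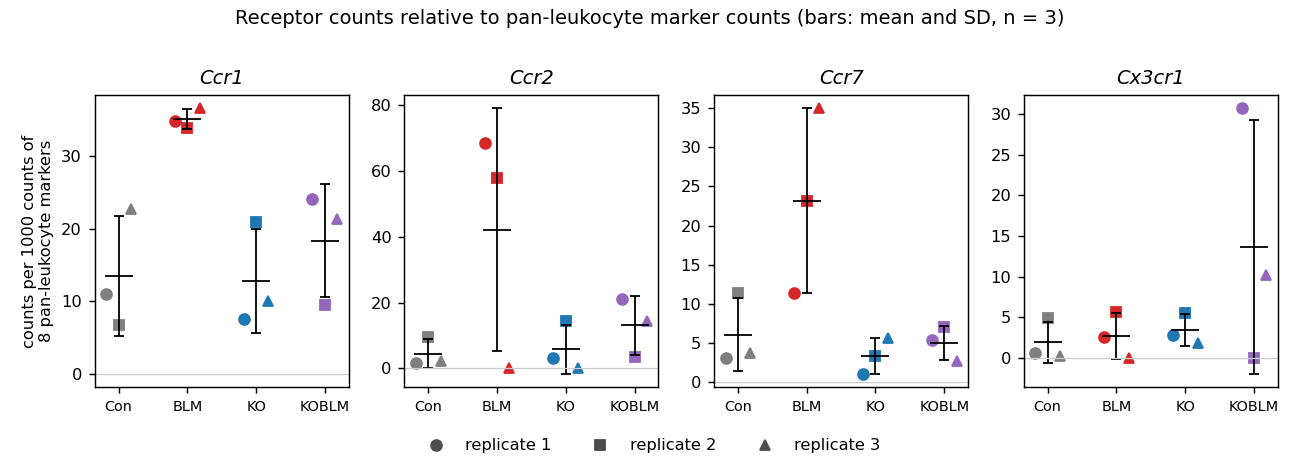
Counts of Ccr1, Ccr2, Ccr7 and Cx3cr1 per 1000 counts of 8 pan-leukocyte markers, by group, on linear axes with a scale per gene; symbols mark the replicate, horizontal bars the mean and vertical bars the SD (n = 3). Ccr1 lay between 33.9 and 36.6 in the 3 BLM libraries and at 24.2 or lower in the other 9, whereas Ccr2 stayed near 0 in BLM 3.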

How the data were processed

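RNA of sorted ATII cells from 12 mice (4 groups of 3) was sequenced with a QuantSeq 3′ kit, which gives a tag near the end of a transcript, as single 75-nt reads. The authors deposited raw read counts per gene symbol, 1 table per library. The submitters' processing notes name Bowtie2, edgeR and build mm10, and versions, roles and strand setting are not given in the sources used here. Each table held 23282 entries. Repeated symbols (79 entries of 35 symbols) were added up, giving 23238 symbols, and 17480 of these had at least 1 count.

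Counts were tested with edgeR 4.0.16 (filterByExpr, TMM, quasi-likelihood, 1 model of the 4 groups, 8 residual degrees of freedom before moderation) over 13054 genes. Called genes changed over 1.5-fold at an unadjusted p under 0.05, the threshold of the study, and Benjamini-Hochberg values over all genes stand beside it. Standard errors were derived as the absolute log2 fold change divided by the square root of the quasi-likelihood F, not taken from the fit. Where a group had 0 counts, they rest on the prior count as the log2 fold change does. CPM was computed from library totals and compared by exact permutation (scipy 1.17.1). The study gives 3 mice per group. Totals of 7005005 to 11153154 counts set the floor of 3 counts.

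All 8 receptors are named in each comparison. Ligands and other receptors are named where they passed, with Ackr3 and Ccr3 named in any case, and some genes that the rules name are not reported here. Likeness is Pearson's r of TMM log2 CPM (prior count 2) for receptors above the floor in at least 6 libraries, which left out Cxcr3. Receptors, lists and tests were chosen with earlier results of these data known. Grk2 and Grk3 were matched under the older symbols Adrbk1 and Adrbk2. Ly6g and Ighm were not analysed here. The last 500 nt of each receptor transcript were compared with other genes by blastn 2.17.0, with 0 alignments of at least 75 nt and 95% identity. Promoters are from RefSeq (7 of 8 receptors; Ccr7 was not matched), and positions from GENCODE on GRCm38. edgeR code was tested on simulated data. Alternatives were size factors or library size in place of TMM, no filter, a replicate block, only the groups compared, DESeq2 1.42.0, adjusted p, and leaving out each library; a pan-leukocyte scale and a fit without BLM 3 for the KO comparisons were added after seeing the data.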

Additional observations from a re-analysis of the deposited data

Results flagged for a closer look

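By edgeR's test of the interaction, 3 of the 38 receptors and ligands tested had a bleomycin effect that differed between the genotypes at an unadjusted p under 0.05, beside 2.82% of all genes and 0 of the 8 receptors followed here, and all 3 had an adjusted p of 1. For the Ccr2 ligand Ccl7 the difference of log2 fold changes was -12.75, a size set by the prior count, with counts of 0, 0 and 0 in Con, 1016, 1101 and 0 in BLM, 0, 345 and 0 in KO and 47, 422 and 129 in KOBLM. For the Ccr7 ligand Ccl21a it was 6.24, and counts were 126, 460 and 36 in Con, 57, 0 and 0 in BLM, 124, 2 and 72 in KO and 607, 444 and 418 in KOBLM, and the KOBLM libraries were above all BLM and KO libraries in CPM. Entries of Ccl21a were repeated in the tables and summed, and near-identical copies of this gene may share its tags. For Ackr3, the scavenging receptor for Cxcl12, it was 8.35, with 1 count in all in KO. Of these 3 genes, Ccl7 was among those that the study had singled out with these data. Groups of 3 libraries were too small for the check on single libraries that stand apart.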

How the results depend on the processing

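Of 573 receptor log2 fold changes recomputed under the alternatives, 524 kept their direction and their side of the threshold, 39 reversed, 4 passed newly and 6 no longer passed; the causes were not tested. In BLM versus Con 1 receptor was called in place of 0 with no filter (Ccr2 at 3.24), by DESeq2, and without BLM 3, with a range of 0 to 1 when leaving out each library. DESeq2 called 7.54% of all genes there, and the fit without BLM 3 called 5.45%. Shares of all genes are not given for no filter, the replicate block, only the groups compared, or the interaction without Con 2. Counts under those settings are therefore no result about the receptors. In KOBLM versus KO 0 receptors were called in place of 1 by adjusted p, with only the groups compared, where Cxcr3 was filtered out, and with the replicate block, and 0 to 1 when leaving out each library. In the interaction 0 to 1 were called when leaving out each library (1 lower without Con 2), and 0 each time in KO versus Con and KOBLM versus BLM. The replicate numbers do not pair the libraries: deviations from the group means correlated at -0.114 to 0.096 between same-numbered libraries. With the replicate block Cxcr3 in KOBLM versus KO was at -9.60 and no longer passed, and values of Cxcr6 in BLM versus Con (-0.20), Ccr2 in KO versus Con (-0.50), and Ccr2 (0.17) and Cxcr2 (0.61) in the interaction reversed. Ccr1 in the interaction reversed to 0.14 with library size alone, and Cxcr2 in KO versus Con to 0.081 on the pan-leukocyte scale. Size factors moved the median of all genes by up to 0.06 and library size alone by up to 0.12.

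When leaving out each library, 33 values reversed. In BLM versus Con Cxcr3 ranged from -0.17 to 7.51, Cxcr4 from -0.83 to 0.78, Cxcr6 from -6.21 to 6.96 and Cx3cr1 from -0.66 to 2.70. In KO versus Con Ccr1 ranged from -0.58 to 0.70, Ccr2 from -1.22 to 1.28 and Cxcr2 from -2.31 to 1.55. In KOBLM versus BLM Ccr1 ranged from -0.74 to 0.31, Cxcr2 from -1.43 to 1.07, Cxcr4 from -0.94 to 0.68 and Cxcr6 from -0.14 to 8.35, and in KOBLM versus KO Cxcr6 from -2.29 to 0.17. In the interaction Ccr1 ranged from -0.92 to 0.50, Ccr7 from -1.03 to 0.62, Cxcr2 from -2.42 to 1.48, Cxcr4 from -1.49 to 0.12, Cxcr6 from -7.76 to 5.41 and Cx3cr1 from -0.82 to 2.53. Ccr2 in BLM versus Con stayed between 2.77 and 4.18. Of 144 counts of ligands and other receptors, 90 were within 1.5 times of the value given and 54 were not; ligands called in BLM versus Con ranged from 1 (without Con 2) to 8 (without BLM 3). Cxcr3 and Cxcr6 had 0 counts in 7 and 5 libraries. Depth did not order these: BLM 3, the deepest library, held neither and BLM 1, the shallowest, held both. Genes with a count numbered 6847 in BLM 3 and 13838 in BLM 1, but KO 3, with 8790, held both receptors. The part of this number in the 0 counts was not tested.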

Other observations

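The ratio of Ccr2 to Cx3cr1 counts within a library was chosen after the values were seen and is given with no test. It was 2.63, 1.97 and 10.3 in Con 1 to 3, and 27.3 and 10.2 in BLM 1 and BLM 2. It was 1.11 and 2.56 in KO 1 and KO 2, and 0.689 and 1.42 in KOBLM 1 and KOBLM 3. KOBLM 2 had 333 Ccr2 counts and no Cx3cr1 count, KO 3 had no Ccr2 count beside 152 of Cx3cr1, and BLM 3 had a single Ccr2 count and no Cx3cr1 count. Ccr2 is high on inflammatory monocytes and Cx3cr1 on patrolling ones, as background.

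Over the 12 libraries the pair of receptors with the highest Pearson r of log2 CPM was Ccr2 and Cxcr2 (r = 0.827), followed by Ccr1 and Ccr2 (r = 0.687), Cxcr6 and Cx3cr1 (r = 0.671) and Ccr1 and Cxcr2 (r = 0.669), of 28 pairs. Among the genes most like Ccr2 were Zbtb18 (r = 0.967) and Rcsd1 (r = 0.963), and those most like Cxcr6 were Gcdh (r = 0.958), Plekha8 (r = 0.949) and Stambpl1 (r = 0.873). All 12 libraries enter each coefficient; they differ in depth and in leukocyte marker level, and the part of these was not tested. Ccr1, Ccr2, Cxcr6 and Cx3cr1 lie on chromosome 9, where 14 chemokine and atypical receptors of the lists lie in all, and their log2 fold changes in BLM versus Con ran from 0.66 to 3.27.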
